A study of Oryza sativa with 3 samples.

Results

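The rice miRNA families miR395, miR528 and miR827, which plants are known to regulate by nutrient supply, were examined in small RNA libraries of germinating embryos. Every mature sequence assigned to these families among the known miRNAs was taken and counted once, which gave 3 members, osa-miR395m, osa-miR528 and osa-miR827, of 59 known miRNAs and of 289 listed miRNAs in all. The embryos came from dehulled seeds of cultivar Nipponbare kept in the dark at 30°C in distilled water. They were dissected from the dry seed (0 hours after imbibition, HAI), at 12 HAI and at 24 HAI. RNA of 18–30 nt was sequenced in 1 library per time point, made from RNA of several plates, so no difference below has a replicate check. No nutrient was varied or measured. The tables hold only miRNAs, so the labelled tissue could not be checked against marker genes.

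Plant miRNAs are cut from hairpin precursors and guide the silencing of mRNAs to which they pair. In plants, miR395 accumulates under sulfate starvation and targets ATP sulfurylases, which activate sulfate, and a sulfate transporter. In rice, miR827 accumulates under phosphate starvation and targets SPX-MFS proteins, which carry phosphate across the vacuolar membrane, while miR528, a miRNA of monocots, targets mRNAs of copper proteins such as ascorbate oxidase.

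The mature sequences are shown because they are what the reads were matched to, with bases 2 to 8 (the seed) in capitals, written as DNA as in the deposited tables.
osa-miR395m: tGAAGTGTttgggggaactc
osa-miR528: tGGAAGGGgcatgcagaggag
osa-miR827: tTAGATGAccatcagcaaaca
The 3 seeds differ, and 0 of the other listed miRNAs had the same bases 2 to 8 as any of them. The closest listed sequence to each member was 9 edits away, so reads of another listed miRNA are not near matches of a member. All 3 members begin with T, as do 38 of the 59 known miRNAs. osa-miR395m has 20 nt and the other members have 21 nt.

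Each member was listed with 1 precursor, as were 49 of the 59 known miRNAs. The hairpins are shown because they place each mature sequence, in capitals, on its arm.
osa-MIR395m: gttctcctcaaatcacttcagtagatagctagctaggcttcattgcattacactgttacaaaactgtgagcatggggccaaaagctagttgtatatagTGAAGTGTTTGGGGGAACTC
osa-MIR528: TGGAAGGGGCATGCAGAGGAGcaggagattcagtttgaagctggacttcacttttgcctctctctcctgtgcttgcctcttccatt
osa-MIR827: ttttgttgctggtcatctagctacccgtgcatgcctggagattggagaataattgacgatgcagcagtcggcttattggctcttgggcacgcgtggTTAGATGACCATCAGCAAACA
Coordinates are those of the deposited tables, on the MSU rice annotation release named in the methods of the study. osa-MIR395m lies at chr4:32621995-32622112 on the plus strand, is annotated as intergenic and carries the mature sequence on the 3p arm. osa-MIR528 lies at chr3:1667330-1667415 on the plus strand, is annotated as exonic and carries it on the 5p arm. osa-MIR827 lies at chr2:23901168-23901284 on the minus strand, is annotated as intergenic and carries it on the 3p arm. No other listed precursor overlapped these loci, and the nearest ones were 380, 121 and 219 kb away, respectively.

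The hairpins have 118, 86 and 117 nt, in the order above, against a median of 93 nt over the 83 known precursors. Their listed minimal folding energies were −55.4, −44.8 and −51.1 kcal/mol. The minimal folding energy index, which divides that energy by length and by G+C content, was 1.11, 1.02 and 0.881, at ranks 28, 41 and 75 of 83. In structures computed with RNAfold, 18 of 20 mature bases of osa-miR395m, 19 of 21 of osa-miR528 and 18 of 21 of osa-miR827 were paired. The opposite strand of the duplex (the miRNA*) was marked as absent for all 3 members and as present for 1 of the 59 known miRNAs. miR395 has several near-identical loci in rice, so reads given to osa-miR395m cannot be assigned to a single locus from these tables.

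The libraries held 17359816 to 22332607 genome-mapped reads, and 1 read was worth 0.0448 to 0.0576 TPM, the unit of reads per 1000000 genome-mapped reads. The share of mapped reads taken by the listed miRNAs was 1.48%, 2.84% and 3.40% at 0, 12 and 24 HAI, so a ratio of TPM and a ratio of shares of miRNA reads differ. The median log2 ratio of TPM over all listed miRNAs was 0.78 for 12 against 0 HAI, 0.96 for 24 against 0 HAI and 0.17 for 24 against 12 HAI. With the summed miRNA reads as the library total these medians were −0.15, −0.24 and −0.09. Ratios below are given with exact 95% limits and with the adjusted p of a two-sided exact binomial test on the reads of 2 libraries, adjusted by Benjamini-Hochberg over all listed miRNAs with a read in the pair. The test compares libraries, not conditions, and its limits cover counting error only.

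osa-miR528 was the most abundant member in all 3 libraries and was higher in each later library. Its reads numbered 45 in the dry seed, 234 after 12 hours and 327 after 24 hours. These were 2.34 TPM (95% limits 1.71–3.14), 10.5 TPM (9.18–11.9) and 18.8 TPM (16.9–20.99), with no overlap between the limits. The level at 12 HAI was 4.47-fold that at 0 HAI (limits 3.24–6.30, adjusted p = 2.53e-25, exact test), in a comparison where 48.6% of the tested miRNAs, and 83.1% of the 59 known ones adjusted alone, were called higher. At 24 HAI it was 8.04-fold that at 0 HAI (5.87–11.2, adjusted p = 1.75e-59, exact test), where 52.9% of all and 84.7% of the known miRNAs were called higher. From 12 to 24 HAI it was 1.80-fold higher (1.52–2.14, adjusted p = 5.08e-11, exact test), where 20.1% of all and 49.2% of the known miRNAs were called higher. A call of higher at 12 or 24 against 0 HAI was therefore common among known miRNAs. By size, its ratio of 24 to 0 HAI ranked 25 of 289, and 10 of the 59 known miRNAs. Over all listed miRNAs, 8.65% were over 8-fold higher.

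osa-miR827 was higher at 12 HAI than at 0 HAI, and its levels at 12 and 24 HAI were not told apart by the test. Its reads numbered 27, 134 and 118 at 0, 12 and 24 HAI, or 1.41 TPM (0.927–2.05), 6.0 TPM (5.03–7.11) and 6.80 TPM (5.63–8.14). The limits at 12 and 24 HAI overlap, and both lie above those at 0 HAI. The ratio was 4.27 for 12 against 0 HAI (2.81–6.71, adjusted p = 2.31e-14, exact test) and 4.83 for 24 against 0 HAI (3.16–7.64, adjusted p = 2.18e-16, exact test). For 24 against 12 HAI it was 1.13 (0.877–1.46, adjusted p = 0.557, exact test), so a change of up to 1.46-fold upward is within the counting limits. That ratio fell to 0.946 with the summed miRNA reads as the total, and was not called there either. The difference between 0 and 24 HAI ranked 39 of 289, and 13 of the 59 known miRNAs. Over all listed miRNAs, 18% were over 4-fold higher.

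osa-miR395m was at the detection limit in the dry seed and at 12 HAI and was clearly counted only at 24 HAI. It had 0 reads at 0 HAI (exact 95% upper limit 0.192 TPM), 2 reads or 0.0896 TPM at 12 HAI, and 36 reads or 2.07 TPM (1.45–2.87) at 24 HAI. The 3 reads used in place of 0 are worth 0.156 TPM at 0 HAI. With 3 reads in place of 0 the ratio of 24 to 0 HAI was 13.3. The exact 95% lower limit from the counts as they are, 36 and 0 reads, was 10.3 (adjusted p = 9.20e-12, exact test). That limit has no upper counterpart and is not the limit of the 13.3, which depends on the 3 reads put in. The ratio of 24 to 12 HAI was 23.2 with wide limits of 5.96–199, since it rests on 2 reads at 12 HAI (adjusted p = 2.54e-10, exact test). With counts of 3 or fewer set to 3, its log2 ratio of 24 to 12 HAI was 3.95. In that setting it was the highest of the 289 miRNAs and the only one over 8-fold (0.346% of them). With the counts as they are, other miRNAs with few reads at 12 HAI were over 8-fold too, such as OsmiR-113 (11.6-fold, 18 against 2 reads). OsmiR-20 and OsmiR-52 had 8 reads at 24 HAI and 0 at 12 HAI, so their ratios have no upper limit. The first place of osa-miR395m therefore holds only in the setting with 3 reads. No fold is given for 12 against 0 HAI, where both counts are under 3 reads (adjusted p = 0.603, exact test).

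**Figure D1:**
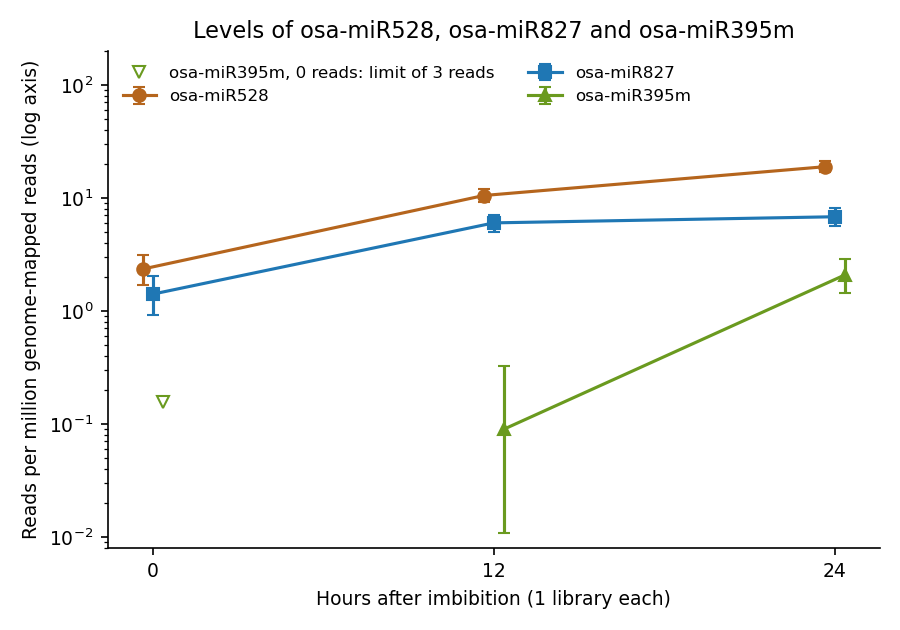
Levels of the 3 members in reads per 1000000 genome-mapped reads (log axis) against hours after imbibition, 1 library each. Filled symbols are the level with exact 95% counting limits. The open triangle is the value of 3 reads, drawn where osa-miR395m had 0 reads. osa-miR528 was the highest in each library, osa-miR827 was nearly level between 12 and 24 HAI, and osa-miR395m reached 2.07 TPM at 24 HAI.

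In the plot of levels by time, 71.9% of the log2 difference of osa-miR528 between 0 and 24 HAI was present at 12 HAI, and 92.1% of that of osa-miR827. These shares hold for genome-mapped reads as the total and have no limits. With the summed miRNA reads the log2 ratio of osa-miR827 to 0 HAI was 1.16 at 12 HAI and 1.08 at 24 HAI. By the rule of the study that divides each TPM by the highest of the 3, the lowest value was 0.124 for osa-miR528, 0.207 for osa-miR827 and 0 for osa-miR395m. All 3 members were thus below the limit of 0.5 and highest in TPM at 24 HAI, as were 44.3% of the listed miRNAs. For osa-miR827 the levels at 12 and 24 HAI were not told apart by the test.

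**Figure D2:**
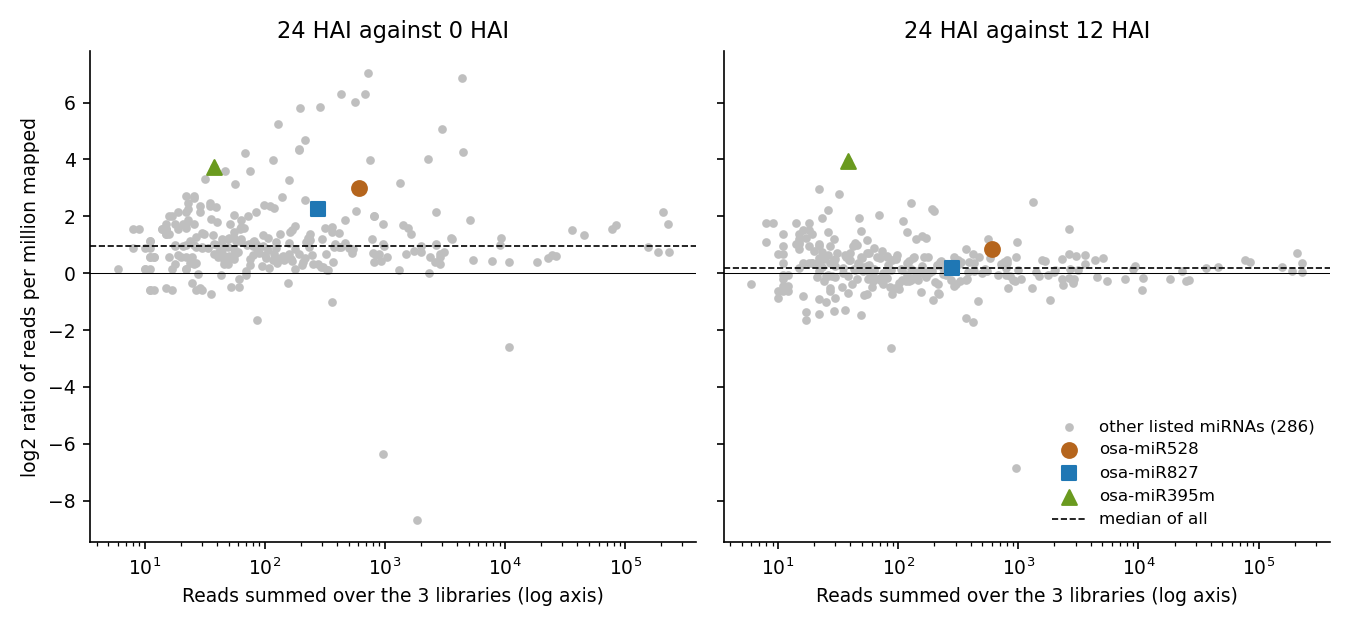
The log2 ratio of TPM of each of the 289 listed miRNAs against its reads summed over the 3 libraries (log axis), with counts of 3 or fewer set to 3 and the dashed line at the median. The 3 members lie above the median for 24 against 0 HAI. For 24 against 12 HAI osa-miR395m has the highest ratio and osa-miR827 lies near the median.

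Relative to the median of all listed miRNAs, which the plot of all ratios shows as a dashed line, osa-miR528 was 2.05 higher on the log2 scale for 24 against 0 HAI and osa-miR827 was 1.31 higher. For osa-miR395m, with 3 reads in place of 0, the value was 2.77. The median over the known miRNAs alone was higher, at 1.34 against 0.96 over all listed miRNAs, so against it each member stood out less. For 24 against 12 HAI the values were 0.68 for osa-miR528, 0.01 for osa-miR827 and, with 3 reads in place of 2 as in the median, 3.78 for osa-miR395m. Thus osa-miR827 lay at the median from 12 to 24 HAI.

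With the summed miRNA reads as the library total, the members were still called higher at 24 than at 0 HAI. osa-miR528 was then 3.51-fold higher, osa-miR827 2.11-fold and osa-miR395m 5.80-fold with 3 reads in place of 0. For osa-miR395m the exact lower limit from the counts as they are, 36 and 0 reads, was 4.48. In that scaling 16.3% of the miRNAs were called higher and 20.8% lower, against 52.9% and 1.73% with genome-mapped reads. For 12 against 0 HAI it gave 12.2% higher and 10.8% lower, against 48.6% and 0.694%, and for 24 against 12 HAI 12.1% higher and 18% lower, against 20.1% and 8.3%.

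**Figure D3:**
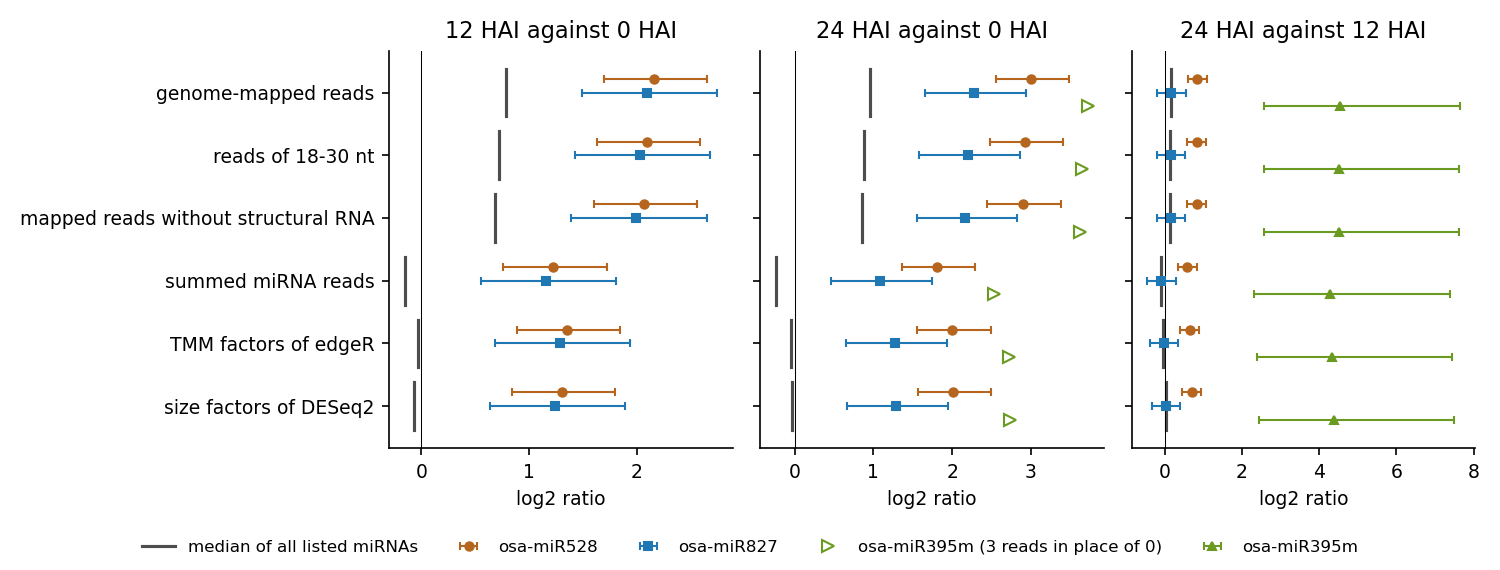
The log2 ratio of each member between libraries under 6 library totals, with exact 95% counting limits. Open triangles are ratios with 3 reads in place of 0, drawn without limits, and the grey bars are the median of all listed miRNAs. For 24 against 0 HAI every member lies above 0 under each total, and its distance to the median is the same under each by construction.

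The plot of ratios under the 6 library totals shows how far a total moves a ratio, since it moves every miRNA by the same amount. osa-miR528 ranged from 1.81 to 3.01 on the log2 scale for 24 against 0 HAI, and osa-miR827 from 1.08 to 2.27. The value of osa-miR395m with 3 reads in place of 0 ranged from 2.54 to 3.73 under the same 6 totals.

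Reads of the members can be compared within a library without any total. osa-miR528 had 1.67 reads per read of osa-miR827 at 0 HAI (limits 1.01–2.79), 1.75 at 12 HAI (1.41–2.18) and 2.77 at 24 HAI (2.24–3.45). The change of this ratio between 12 and 24 HAI was 1.59-fold (1.16–2.16), which excludes 1. Between 0 and 12 HAI it was 1.05-fold (0.596–1.82), and the limits include 1. Between 0 and 24 HAI it was 1.66-fold (0.945–2.88), and these limits include 1 as well. The ratio of osa-miR528 to osa-miR395m was 117 at 12 HAI (32.0–972) and 9.08 at 24 HAI (6.43–13.2). That of osa-miR827 to osa-miR395m was 67.0 (18.2–559) and 3.28 (2.24–4.90). Both ratios to osa-miR395m were lower at 24 HAI, to 0.0776 (0.00899–0.308) and 0.0489 (0.00563–0.199) of their value at 12 HAI.

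**Figure D4:**
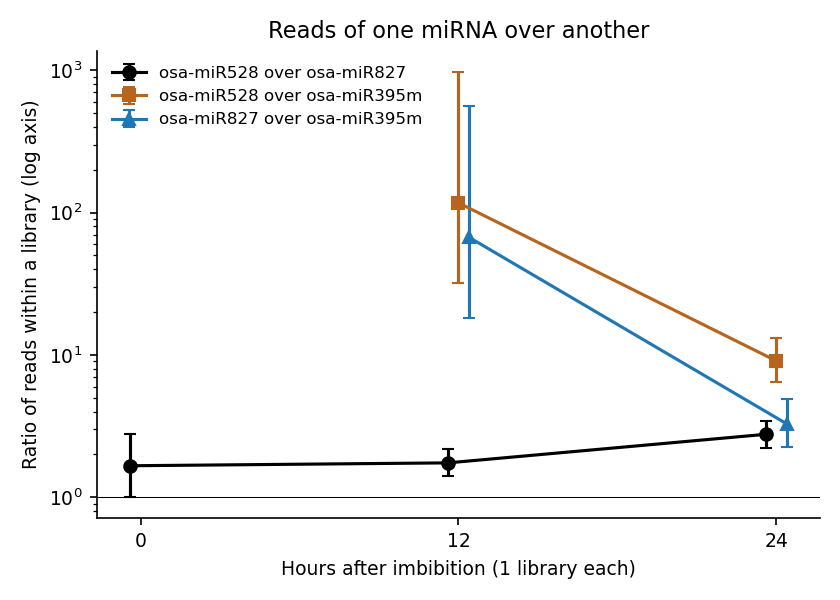
Reads of one member over another within each library (log axis) against hours after imbibition, with exact 95% counting limits. The ratio of osa-miR528 to osa-miR827 is highest at 24 HAI, and both ratios to osa-miR395m, drawn where it had reads, are lower at 24 HAI than at 12 HAI.

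The order of levels was osa-miR528, osa-miR827 and osa-miR395m at each time point. The plot of ratios within a library shows the limits for osa-miR528 over osa-miR827 closest to 1 at 0 HAI, where they just exclude it. Summed, the 3 members made up 0.0253% of all miRNA reads in the dry seed, 0.0584% after 12 hours and 0.0815% after 24 hours. osa-miR528 supplied 62.5%, 63.2% and 68.0% of their reads.

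All 3 were in the lower part of the known miRNAs by level. osa-miR528 ranked 41, 40 and 35 of 59 at 0, 12 and 24 HAI. osa-miR827 ranked 45, 45 and 44, and osa-miR395m ranked 59, 59 and 53. At 24 HAI osa-miR528 lay between osa-miR5159 (19.2 TPM) and osa-miR5814 (18.7 TPM), and osa-miR827 between osa-miR1866 (6.97 TPM) and osa-miR1862d (6.39 TPM). osa-miR395m lay between osa-miR164abf (2.71 TPM) and osa-miR1861g (1.90 TPM). The counting limits of the ratio of each member to its neighbours include 1, so these neighbours in the order are not told apart.

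The miRNAs with the profile most like each member were ranked by Euclidean distance between log2 levels centred on each miRNA, over 3 libraries and 218 miRNAs with at least 30 reads. The nearest to osa-miR528 were the predicted OsmiR-111 (distance 0.324), OsmiR-75 (0.488) and OsmiR-160 (0.517). Those nearest to osa-miR827 were OsmiR-164 (0.0673), OsmiR-151 (0.146) and the known osa-miR1867 (0.286). OsmiR-164 and OsmiR-151 had 3 reads each at 0 HAI, so their place in this order rests on few reads. The nearest to osa-miR395m were OsmiR-162 (1.0), OsmiR-232 (1.24) and OsmiR-198 (1.39), farther away than those of the other members. At 0 and 12 HAI osa-miR395m had 0 and 2 reads, and OsmiR-162 had 0 and 5. Their log2 levels there, and so these distances, depend on the 0.05 TPM added before taking logs. With 3 points per profile this is a description of shape only.

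Of 13 families that plants are known to regulate by sulfate, phosphate, copper or nitrogen supply, 6 were listed, with 9 mature sequences. These were the 3 members and, for nitrogen, a pair each of miR167, miR169 and miR393. The families miR399, miR2111, miR397, miR398, miR408, miR857 and miR444 had 0 sequences among the known miRNAs. That does not show that they are absent from the embryos. The miR393 pair and the miR167 pair each differ only at the 3' end, and reads were matched with mismatches allowed. Whether a pair shares reads was not tested, so the 9 are not independent. At 24 against 0 HAI, 9 of the 9 were called higher, where 52.9% of all and 84.7% of the known miRNAs were. Their median log2 ratio was 2.37, against 0.96 over all listed miRNAs and 1.34 over the known miRNAs, to which all 9 belong. For 24 against 0 HAI 1.69% of the known miRNAs were called lower. With the summed miRNA reads as total, 7 were called higher and 2 lower, the latter being the miR167 pair. Under that total 16.3% of all listed miRNAs were called higher and 20.8% lower, and no share was computed for the known ones alone. At 12 against 0 HAI 6 were called higher and 3 were not called, among them osa-miR395m, where 48.6% of all and 83.1% of the known miRNAs were called higher and 0.694% and 1.69% lower. With the summed miRNA reads as total, 3 were called higher, 1 lower and 5 were not called in that comparison. There, 12.2% of all listed miRNAs were called higher and 10.8% lower. At 24 against 12 HAI 6 were called higher, 2 lower and 1, osa-miR827, was not called, with either total. In this comparison 20.1% of all and 49.2% of the known miRNAs were called higher with genome-mapped reads, and 8.3% and 25.4% lower. With the summed miRNA reads 12.1% of all listed miRNAs were called higher and 18% lower.

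The miR169 family targets mRNAs of NF-YA transcription factors. With 3 reads in place of 0 for osa-miR395m, osa-miR169c held the highest ratio of the list for 24 against 0 HAI. The ratio of osa-miR395m, with 0 reads at 0 HAI, has no upper limit, so its order against osa-miR169c is not settled. osa-miR169c had 6, 199 and 355 reads at 0, 12 and 24 HAI and was 65.5-fold higher at 24 than at 0 HAI (29.8–180). osa-miR393a and osa-miR393b, of the family that targets auxin receptor mRNAs, had 70 reads each at 24 HAI and were 4.84-fold (2.78–8.93) and 5.16-fold (2.93–9.71) higher than at 0 HAI. osa-miR167fghj, of the family that targets mRNAs of auxin response factors, was the most abundant of the list, at 279 TPM at 0 HAI and 437 TPM at 24 HAI. The calls fell in different steps, and the difference between steps was not tested. osa-miR827 was called higher at 12 against 0 HAI alone, osa-miR393a and osa-miR393b at 24 against 12 HAI alone, and osa-miR528 in both steps.

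**Figure D5:**
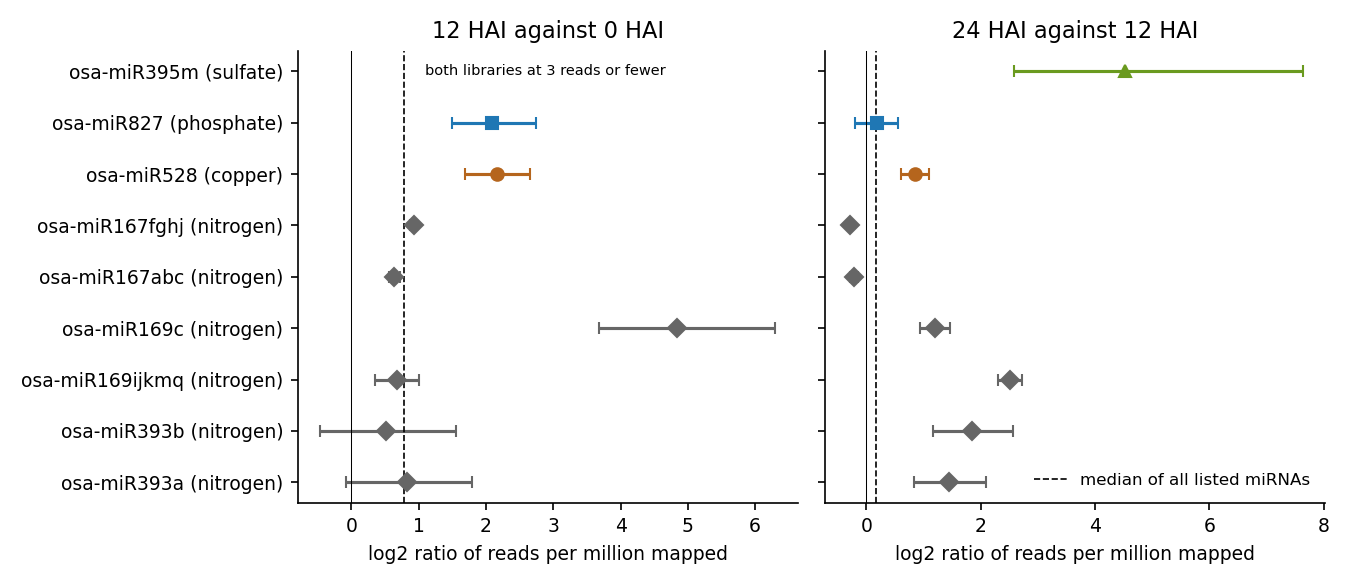
The log2 ratio of TPM for the 9 listed sequences of nutrient-regulated families in each 12-hour step, with exact 95% counting limits and the median of all listed miRNAs as a dashed line. osa-miR528 and osa-miR827 lie to the right of the median at 12 against 0 HAI, and osa-miR395m lies farthest to the right at 24 against 12 HAI.

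The plot of the nutrient list shows the 3 members among the other families. osa-miR395m had the highest ratio of the list for 24 against 12 HAI, with limits that overlap those of osa-miR169ijkmq (5.68-fold, 4.91–6.60).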

How the data were processed

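The 3 small RNA libraries were grouped by their labels into 0, 12 and 24 HAI. Members and lists were chosen with earlier results of these data known.

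Per the labels and the methods of the study, the authors filtered reads with FastQC, mapped reads of 18–30 nt with Bowtie to the MSU rice genome, removed structural RNA and matched the rest to miRBase with mismatches allowed, or predicted new miRNAs. The read counts were deposited by the authors without normalization. The TPM values deposited by the authors equal the counts per 1000000 genome-mapped reads in all 407 precursor rows. The folding scores (minimal folding energies) and the percent of G+C of predicted precursors were computed by the authors. The known table is present in 2 identical copies, of which the first was read, and 1 unnamed sequence was left out.

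The quasi-likelihood test of edgeR has no residual degrees of freedom with 1 library per time point. Instead, an exact binomial test (two-sided, conditional on the genome-mapped totals) was run on each pair of libraries, adjusted by Benjamini-Hochberg with a threshold of 0.05, and exact 95% limits. A count of 0 was set to 3 reads for ratios, and counts of 3 or fewer for ranks and medians. Tests and exact limits used the counts as they are. Profiles used log2 of TPM with 0.05 added. No molecular identifiers are described, so limits cover counting error only. Named were the members, the nutrient list, the 3 nearest profiles, sequences sharing a seed or locus, and neighbours in level at 24 HAI. Alternatives were 5 other library totals (TMM of edgeR 4.0.16 and size factors of DESeq2 1.42.0 among them), 1 read added, read minimums, known miRNAs or families alone, and a lower limit over 2. The target site search that had been planned was not run, since no transcript sequences were used here. Tools were Python 3.11.15, scipy 1.17.1, pandas 2.3.3, numpy 2.4.6, matplotlib 3.10.9, R 4.3.3 and RNAfold 2.7.2.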

Additional observations from a re-analysis of the deposited data

How the results depend on the processing

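No paired analysis was possible because each time point has 1 library. Of 48 values of the members' ratios under another library total or with 1 read added, 46 kept their direction and side of the threshold. Another 38 values, under read minimums, known miRNAs or families alone or the limit over 2, have the same ratio by construction and can change only the call, which 37 kept. The log2 ratio of osa-miR827 for 24 against 12 HAI, not called in any setting, was -0.080 with summed miRNA reads and -0.014 with TMM. That of osa-miR528 for 24 against 12 HAI (0.85) was lost when a lower limit over 2 was also asked. osa-miR395m rests on 38 reads, 36 of them at 24 HAI.

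The share of all miRNAs called moved with the setting. For 12 against 0 HAI the percent higher was 12.2 with summed miRNA reads, 13.2 with TMM and with DESeq2, 84.4 with at least 100 reads, 83.1 for known miRNAs, 85.7 for families and 12.5 with the limit over 2; the percent lower was 10.8, 7.99, 8.68, 1.42, 1.69 and 2.38 for all but the last. For 24 against 0 HAI the percent higher was 16.3 with summed miRNA reads, 19.4 with TMM and with DESeq2, 84.7 for known miRNAs, 88.1 for families and 20.4 with the limit over 2; the percent lower was 20.8, 14.9 and 14.5 under these totals, 2.84 with at least 100 reads and 1.04 with the limit. For 24 against 12 HAI the percent higher was 12.1 with summed miRNA reads, 35.5 with at least 100 reads, 49.2 for known miRNAs, 52.4 for families and 4.15 with the limit; the percent lower was 18.0, 17.0, 25.4, 28.6 and 1.38, and 14.2 with TMM. The cause was not tested.

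Of the 3 nearest profiles, 1 was kept for each member with 0.5 TPM added, and 1 for osa-miR395m with TPM over the maximum. With at least 100 reads, 1 was kept for osa-miR827 and 1 for osa-miR395m. Those lost there, OsmiR-164, OsmiR-151, OsmiR-162 and OsmiR-198, had 35, 35, 32 and 69 reads in total. The filter thus removed them whatever their profile. With predicted miRNAs ranked too, 18.3% of miRNAs lay above osa-miR528 at 24 HAI, 28.0% above osa-miR827 and 47.8% above osa-miR395m.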
